A study of Mus musculus with 2 samples.

Results

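The genes of the DNA replication machinery were described in embryonic mouse hindbrain (strain B6NCrl, age 12.5 days). The 43 genes encode the proteins that mark replication origins, unwind DNA, copy it and supply its building blocks. They were chosen by name, and each matched 1 row of the 55536 genes quantified with GENCODE M21. The study holds 1 group of 2 biological replicates, pool 1 from 120 embryos and pool 2 from 88 embryos, male and female together, with no mutation or treatment named. Each library was made from 10 ng of RNA by oligo-dT priming, with spike-in RNAs added. With 1 group there is no contrast between conditions, so the sections below give the level of each gene, its transcripts, its promoter letters and its difference between the pools.

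A chromosome is copied in steps that use different protein complexes. In G1 phase the origin recognition complex (ORC), with Cdc6 and Cdt1, loads the MCM2-7 ring onto DNA. In S phase Cdc45 and the GINS complex join the ring to make the active helicase, polymerase alpha-primase lays down primers, and polymerases epsilon and delta extend them with the sliding clamp PCNA, which replication factor C (RFC) loads. The hindbrain of this age is a mix of progenitors that divide next to the ventricle and neurons that have left the cell cycle and no longer copy their DNA. The pools also held RNA of erythroid, mesenchyme and skeletal muscle marker genes. A level measured in whole tissue is an average over all cells present, and fewer cells of a type cannot be told apart from less RNA per cell.

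Levels are given as TPM, a transcript abundance that divides reads by transcript length and so allows genes to be compared. Gene counts came to 31469575 in pool 1 and 29261472 in pool 2, of which the 43 genes took 0.326% and 0.314%. Counts of single members ran from 298 to 7945 in pool 1 and from 252 to 7051 in pool 2. Spike-ins took 7.97% of all TPM in pool 1 and 10.3% in pool 2, which lowers the TPM of every gene slightly in pool 2. Of 8 hindbrain markers fixed for the label, 7 reached 1 TPM in both pools, and of 6 forebrain markers 2 did. Summed TPM of 8 skeletal muscle genes was 44.1 in pool 1 and 217 in pool 2, higher in pool 2 than in pool 1 by a wide margin, and none of the 8 was at 0 in either pool.

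All 43 genes were above 1 TPM in both pools, as were 61.8% of 22028 protein-coding genes. The median over the 43 genes was 59.1 TPM in pool 1 and 56.9 TPM in pool 2, or 58.0 ± 1.53 TPM (SD, n = 2). The 13619 protein-coding genes at 1 TPM or more in both pools had medians of 21.6 and 21.9 TPM. By mean TPM, 34 of the 43 genes were above the middle of that set and 9 were at or below it. At the top, 6 genes passed 100 TPM in both pools (Rfc2, Rrm2, Mcm7, Mcm6, Pcna and Tyms), and these 6 also lay above the 90th percentile of expressed protein-coding genes (115 TPM). At the bottom, Orc1 alone was under 10 TPM. The highest and lowest genes differed 26.7-fold in pool 1 and 33.6-fold in pool 2, so the parts of the machine were far from equal in RNA level.

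**Figure D1:**
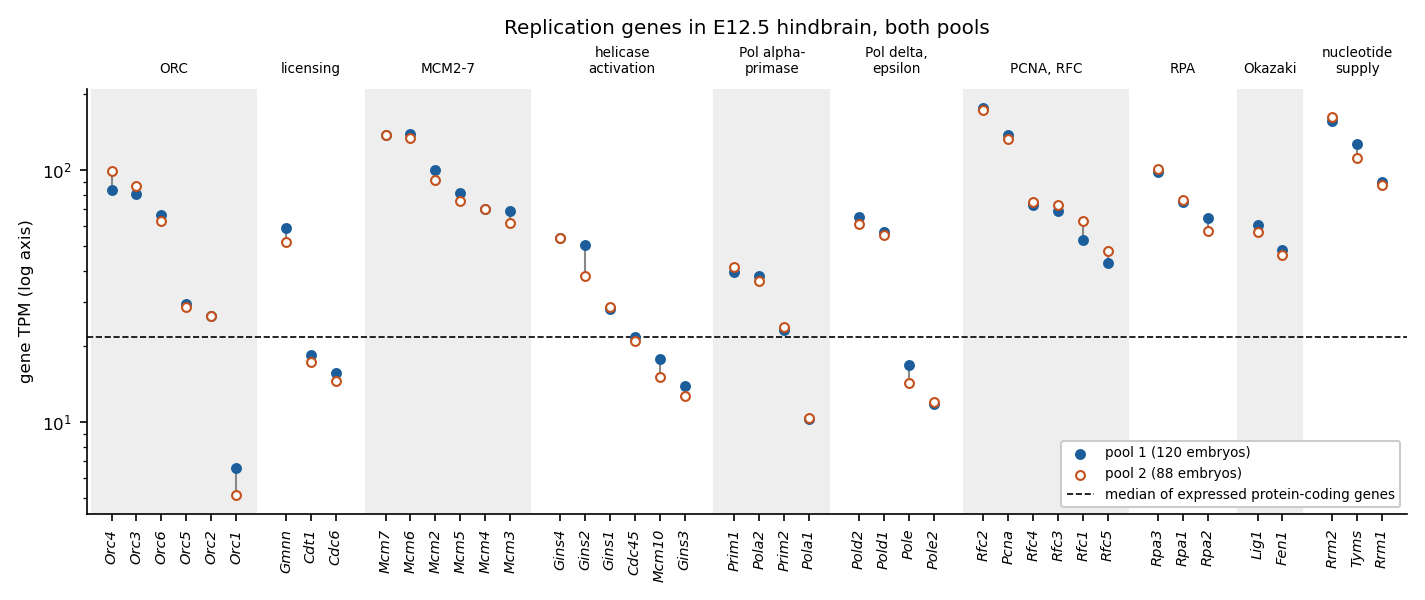
Gene TPM (log axis) of the 43 replication genes in pool 1 (filled) and pool 2 (open), grouped by class and ordered by mean within each class; grey lines join the pools and the dashed line is the median of expressed protein-coding genes. The pools nearly coincide for most genes, the MCM2-7 genes lie close together between 61.9 and 139 TPM, and Orc1 is lowest at 6.60 and 5.16 TPM.

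Their loci were spread over the genome, though not evenly. Chromosome 5 held 8 of the 43 genes (Rfc1, Rfc2, Rfc3, Rfc5, Mcm7, Orc5, Pole and Tyms) and 6.27% of expressed protein-coding genes. Chromosome 8 held 6 (Mcm5, Orc6, Cdt1, Gins2, Gins3 and Gins4) and 5.26% of them. In GENCODE M21 on mm10, Rfc2, the highest, spans 134581366 to 134601805 on the plus strand of chromosome 5, and Orc1, the lowest, 108579423 to 108614833 on the plus strand of chromosome 4. Mcm6 spans 128331590 to 128359664 on the minus strand of chromosome 1 and Mcm7 138164583 to 138172422 on the minus strand of chromosome 5.

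The order of the genes was much the same in both pools. No gene moved by more than 8 places in the ranking, and 21 genes held the same place. In the list ordered by mean TPM, the pool ranges of 23 of 42 adjacent pairs overlapped, so those neighbours did not differ beyond the spread between pools. The other 19 adjacent pairs had ranges that did not overlap, among them Rfc2 over Rrm2, Tyms over Rpa3 and Pola1 over Orc1. Separate ranges show agreement of the pools on gene TPM only. Counted on protein-coding transcripts alone, Rfc2 was below Rrm2 and Tyms below Rpa3, while Pola1 stayed above Orc1.

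The 6 ORC genes, whose products bind origins and serve as the landing site for the helicase, spread most widely of the classes in gene TPM. Orc1 is the ATPase subunit whose protein comes and goes with the cell cycle in mammals. Its TPM was 6.60 in pool 1 and 5.16 in pool 2, at the 20.3 percentile of expressed protein-coding genes. Orc4 (83.7 and 99.6 TPM) and Orc3 (80.6 and 86.7 TPM) were the highest, with overlapping ranges. Orc6, the smallest and least tightly held subunit, had 66.6 and 63.0 TPM. Orc5 (29.5 and 28.8 TPM) and Orc2 (26.4 TPM in both pools) were lower, without overlap between them. The ratio of highest to lowest ORC gene was 12.7 in pool 1 and 19.3 in pool 2, and without Orc1 it was 3.18 and 3.77. Counted on protein-coding transcripts alone the order turned over: Orc6 was highest (59.0 and 57.0 TPM), then Orc3 (45.8 and 51.6 TPM), while Orc4 (21.8 and 26.2 TPM) stood beside Orc2 and Orc5.

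Of the licensing factors, the 2 loaders were low and their inhibitor was higher. Cdc6, an ATPase that completes the loading machine, had 15.7 TPM in pool 1 and 14.6 TPM in pool 2. Cdt1, which brings MCM2-7 to the origin, had 18.5 and 17.4 TPM. Gmnn encodes geminin, which binds Cdt1 and blocks a second round of loading in the same cycle. It stood at 59.1 and 51.9 TPM, 55.5 ± 5.08 TPM (SD, n = 2), above both loaders with no overlap. The highest of the 3 was 3.77 times the lowest in pool 1 and 3.56 times in pool 2.

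The MCM2-7 genes encode the 6 subunits that sit once each in the helicase ring. Their RNA levels lay within 2.02-fold in pool 1 and 2.23-fold in pool 2, a ratio of 2.12 ± 0.147 (SD, n = 2). Mcm7 (138 TPM in both pools) and Mcm6 (139 and 134 TPM) were highest and overlapped. Mcm2 followed at 100.3 and 91.4 TPM and Mcm5 at 81.4 and 75.8 TPM. Mcm4 (70.0 and 70.4 TPM) and Mcm3 (68.6 and 61.9 TPM) were lowest. From Mcm6 down to Mcm3 no neighbours in the order had overlapping pool ranges. The order depended on the annotation, however. With the older GENCODE M4, Mcm5 was lowest at 63.3 TPM, below Mcm3 at 69.0 TPM and Mcm4 at 73.4 TPM (means of the pools). The class median was 87.2 ± 5.15 TPM, against 47.0 ± 1.496 TPM for ORC and 17.97 ± 0.764 TPM for the licensing factors (SD, n = 2 each). On protein-coding transcripts alone the ORC median was 26.3 ± 0.053 TPM, with MCM2-7 at 85.3 ± 4.12 TPM and the licensing factors at 16.3 ± 1.47 TPM (SD, n = 2 each).

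The factors that turn the loaded ring into a working helicase were lower than the ring itself, with a class median of 24.9 ± 0.0813 TPM (SD, n = 2). Cdc45, which bridges the ring and GINS, had 21.7 and 20.98 TPM. Mcm10, needed to start unwinding, had 17.8 and 15.2 TPM. The 4 GINS proteins form a complex with 1 copy of each, yet their genes differed 3.87-fold in pool 1 and 4.24-fold in pool 2. Gins4 had 53.8 and 54.1 TPM, Gins2 50.6 and 38.1 TPM, Gins1 28.2 and 28.8 TPM, and Gins3 13.9 and 12.8 TPM. None of these 4 ranges overlapped. Counted on protein-coding transcripts alone, Gins2 (15.7 and 14.3 TPM) was below Gins1 (25.6 and 27.2 TPM) and stayed above Gins3.

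Polymerase alpha-primase makes the RNA-DNA primer with 4 subunits. Its catalytic polymerase gene Pola1, a gene of the X chromosome, was second lowest of all 43 genes at 10.3 and 10.4 TPM. The primase genes were higher, Prim1 with 39.4 and 41.5 TPM and Prim2 with 23.3 and 23.8 TPM. Pola2, the accessory subunit, had 38.1 and 36.4 TPM. The spread between pools was small beside these differences, and no ranges overlapped.

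Of the catalytic and second subunits of the 2 replicative polymerases, those of delta were higher than those of epsilon. Polymerase delta, which copies the lagging strand, had its catalytic gene Pold1 at 56.9 and 55.3 TPM and its partner Pold2 at 65.2 and 61.1 TPM. Polymerase epsilon, which copies the leading strand, had its catalytic gene Pole at 16.9 and 14.3 TPM and Pole2 at 11.8 and 12.1 TPM. These 4 genes did not overlap. The order did not extend to the smaller subunits. The histone-fold subunits of epsilon, Pole3 and Pole4, were higher than Pole and Pold1 at 63.6 ± 2.01 and 74.6 ± 1.93 TPM (SD, n = 2 each). Of delta, Pold3 had 52.1 ± 2.57 TPM, and Pold4 was below Pole at 12.9 ± 0.651 TPM (SD, n = 2 each).

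PCNA, the ring that tethers polymerases to DNA, was among the highest of the set at 138 and 132 TPM. Of its loader, Rfc2 had the highest gene TPM of all 43 genes, 177 and 173 TPM. Rfc4 (72.9 and 74.6 TPM) and Rfc3 (68.6 and 73.0 TPM) overlapped. Rfc1, the large subunit that other clamp loaders replace, had 53.0 and 63.1 TPM, and Rfc5 had 42.8 and 47.7 TPM. The place of Rfc2 and Rfc1 in this order depended on which transcripts were counted.

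RPA coats single-stranded DNA as a trimer, and its genes lay closer together than those of ORC, MCM2-7, GINS or RFC, within 1.52-fold in pool 1 and 1.77-fold in pool 2. Rpa3 had 98.1 and 101.2 TPM, Rpa1 75.0 and 76.4 TPM, and Rpa2 64.4 and 57.2 TPM. Fen1, the nuclease that trims Okazaki fragments, had 48.3 and 46.3 TPM. Lig1, the ligase that joins them, had 60.8 and 56.9 TPM.

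The 3 nucleotide supply genes had a median of 119 ± 10.2 TPM, which is the value of Tyms, and of 84.2 ± 3.15 TPM on protein-coding transcripts, where Tyms was much lower (SD, n = 2 each). Ribonucleotide reductase makes deoxynucleotides from ribonucleotides with a large subunit, Rrm1, and a small subunit that is made in S phase, Rrm2. Rrm2 had 157 and 163 TPM and Rrm1 90.1 and 87.7 TPM. Tyms, thymidylate synthase, had 127 TPM in pool 1 and 112 TPM in pool 2. All 3 ranges were separate.

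Gene TPM adds up all annotated transcripts of a gene, including those with a retained intron or marked for nonsense-mediated decay. Over the 43 genes a median of 90.5% of TPM was on protein-coding transcripts, close to the 91.5% over expressed protein-coding genes. In 21 genes that share was at least 90% in both pools, in 17 it was in between, and in 5 it was under 50% in both pools (Rfc2, Tyms, Orc4, Gins2 and Rfc1). Among expressed protein-coding genes, 9.15% were under 50% in both pools. A short transcript takes a larger share of TPM than of reads, so shares of counts are given beside shares of TPM for these 5 genes.

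Rfc2 was the extreme case. Its protein-coding transcripts held 4.67% of the gene TPM in pool 1 and 4.37% in pool 2, and 24.1% and 22.9% of the gene's counts. The retained-intron transcripts Rfc2-204 (831 bases) and Rfc2-205 (967 bases) held 43.2% and 33.8% of TPM in pool 1 and 43.9% and 33.3% in pool 2. On protein-coding transcripts alone Rfc2 had 8.24 and 7.57 TPM, which moved it from the highest of the 43 genes to place 42. The exons of Rfc2 share 952 bases with Lat2, a gene of the other strand at 3.99 and 2.59 TPM, and no source used here says whether reads were assigned by strand. With the older GENCODE M4 annotation Rfc2 was 1.61-fold lower, at 109 TPM (mean of the pools).

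Tyms had 19.1% and 14.2% of its TPM and 27.4% and 27.5% of its counts on protein-coding transcripts. The decay-marked transcripts Tyms-205 (618 bases) and Tyms-207 (636 bases) held 36.0% and 20.0% of TPM in pool 1 and 36.9% and 19.7% in pool 2. On protein-coding transcripts Tyms had 24.2 and 16.0 TPM, and its place fell from 6 to 33. Orc4 had 26.02% and 26.3% of TPM on such transcripts but 49.3% and 48.1% of counts. Its largest single transcript by TPM was the processed transcript Orc4-212, with 27.6% and 21.5%.

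In Gins2 and Rfc1 a short retained-intron transcript held most of the TPM but few of the counts. Gins2-204 (511 bases) held 60.2% of TPM and 15.5% of counts in pool 1, and 53.8% and 12.4% in pool 2. Rfc1-205 (485 bases) held 58.5% of TPM and 11.2% of counts in pool 1, and 64.1% and 13.7% in pool 2. On protein-coding transcripts Gins2 had 15.7 and 14.3 TPM and Rfc1 21.7 and 22.3 TPM. The pools thus lay closer together on this measure than on gene TPM for both genes. Gins2 exons share 67.3% of their bases with Gse1 on the other strand, a gene at 18.6 and 17.2 TPM.

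**Figure D2:**
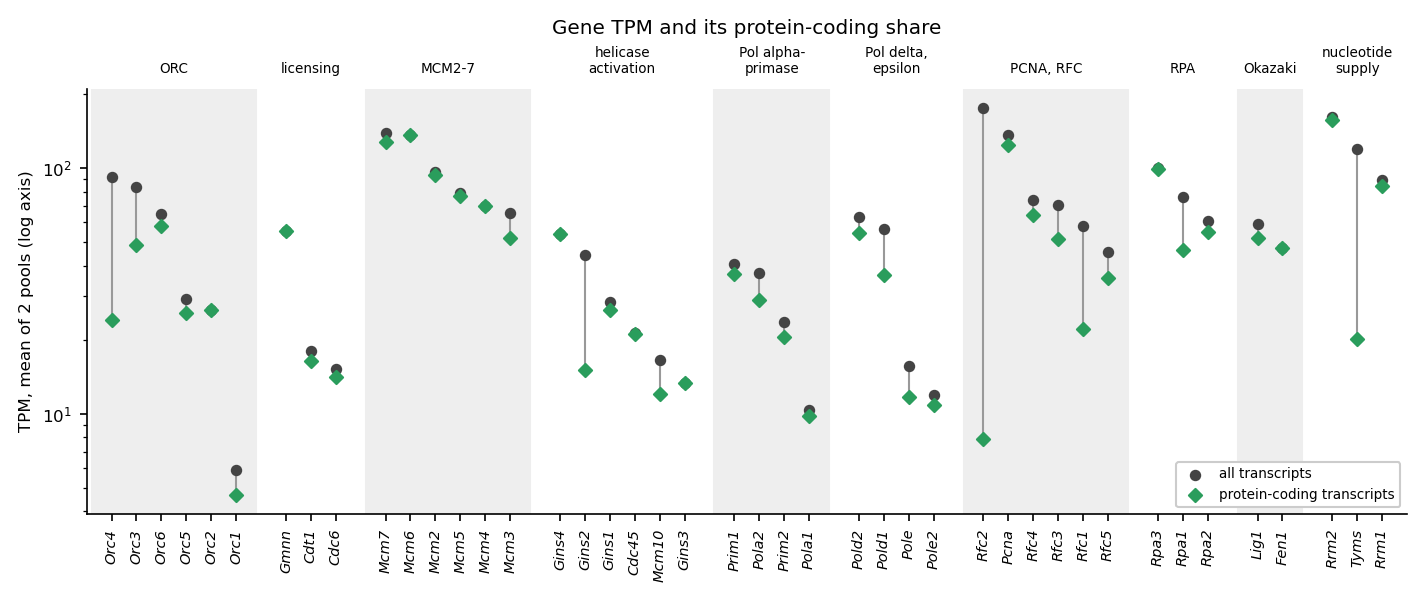
TPM on all transcripts (circles) and on protein-coding transcripts (diamonds), mean of 2 pools on a log axis, for the 43 genes in the class order used above. Rfc2, Tyms, Orc4, Gins2 and Rfc1 have the longest lines, while the MCM2-7 genes hold 78.8% or more of their TPM on protein-coding transcripts.

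Counted on protein-coding transcripts, the median over the 43 genes was 36.95 ± 1.37 TPM (SD, n = 2). Rrm2 was then highest at 153 and 159 TPM, ahead of Mcm6 (138 and 133 TPM), Mcm7 (129 and 125 TPM) and Pcna (126 and 122 TPM). Orc1 stayed lowest at 4.76 and 4.59 TPM. The spread within MCM2-7 was 2.56-fold and 2.69-fold, within ORC 12.4-fold in both pools, and within RFC 7.87-fold and 8.47-fold. Apart from the MCM2-7 spread, these counts on coding transcripts were chosen after the values were seen.

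In 15 genes the top transcript held under 60% of TPM in at least 1 pool, against 42.0% of expressed protein-coding genes. In 2 of them, Pole2 and Lig1, the top transcript differed between the pools, against 8.69%. Pole2-201 (1706 bases) held 90.5% of Pole2 TPM in pool 1 and 37.8% in pool 2, where Pole2-202 (1641 bases), listed at 0 in pool 1, held 52.8%. The Pole2 total was nonetheless 11.8 and 12.1 TPM, on 363 and 330 counts. Lig1 was led by Lig1-206 in pool 1 (32.2%) and by Lig1-201 in pool 2 (35.7%), while by counts Lig1-201 (3091 bases) led in both, with 50.5% and 59.8%, ahead of Lig1-206 (944 bases) with 16.0% and 14.5%. The others were Mcm7, Mcm10, Orc3, Orc4, Gins2, Cdc45, Rfc1, Rfc2, Pola2, Pole, Tyms, Fen1 and Rpa1. In Mcm7, Mcm10, Cdc45, Fen1, Pola2, Orc3, Pole and Rpa1 the leading transcript was protein coding.

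Promoter letters were read from RefSeq (build GRCm38.p6) in windows from 250 bases before to 50 bases after a gene's start, and 35 of the 43 genes had such a window. E2F factors are the textbook regulators of genes used at the start of S phase, and bind DNA with DP partners. They were searched as the octamers TTTCCCGC, TTTCGCGC, TTTGCCGC and TTTGGCGC on either strand, which can overlap each other. Of the 35 genes, 14 held such an octamer. The share was 2.6% of 27025 genes with a window and 4.66% of the 10591 of them that are protein coding and at 1 TPM or more in both pools. With only the 250 bases before the start searched, 9 of the 35 genes held an octamer, against 3.88% of the expressed genes. Base composition was near that of the expressed genes, with a median GC content of 60% against 61.0%. A match is a description of letters and not a bound site.

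The sequences shown are the bases before the start in 4 genes whose octamers lie there, and in Mcm2, which holds none. They end at the base before the RefSeq start, run 5′ to 3′ on the gene's strand, leave out annotated exons, and mark E2F octamers in capitals. Mcm5 lies at chr8:75109329-75109508 (+), Mcm6 at chr1:128359706-128359885 (-), Cdc6 at chr11:98907982-98908150 (+), Pola1 at chrX:93632156-93632335 (-) and Mcm2 at chr6:88898781-88898960 (-). Cdc6 bases lie within an intron of the gene as GENCODE M21 annotates it.
Mcm5: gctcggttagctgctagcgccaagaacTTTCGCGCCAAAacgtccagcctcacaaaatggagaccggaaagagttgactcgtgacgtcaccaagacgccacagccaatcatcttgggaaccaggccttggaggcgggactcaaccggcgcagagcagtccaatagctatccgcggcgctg
Mcm6: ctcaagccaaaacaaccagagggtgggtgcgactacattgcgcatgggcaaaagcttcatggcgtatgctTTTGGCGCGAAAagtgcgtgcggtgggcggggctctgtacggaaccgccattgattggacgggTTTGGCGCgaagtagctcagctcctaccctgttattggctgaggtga
Cdc6: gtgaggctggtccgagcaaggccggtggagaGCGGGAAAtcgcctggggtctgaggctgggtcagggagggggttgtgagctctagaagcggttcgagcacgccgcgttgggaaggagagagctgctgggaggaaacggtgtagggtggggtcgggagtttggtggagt
Pola1: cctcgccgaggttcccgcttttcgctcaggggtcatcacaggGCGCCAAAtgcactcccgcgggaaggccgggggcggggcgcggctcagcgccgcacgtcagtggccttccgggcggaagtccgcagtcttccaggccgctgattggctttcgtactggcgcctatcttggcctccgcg
Mcm2: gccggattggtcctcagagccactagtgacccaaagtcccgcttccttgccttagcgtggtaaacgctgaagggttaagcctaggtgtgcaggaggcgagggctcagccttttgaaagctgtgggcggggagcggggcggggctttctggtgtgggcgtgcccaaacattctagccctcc

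In Mcm5 and Mcm6 the upstream capitals are 2 octamers that overlap by 4 letters, starting 153 and 149 bases before the start in Mcm5 and 110 and 106 before it in Mcm6. Mcm6 has another 47 bases before the start. By class, the octamers were in 4 of 5 MCM genes with a window (Mcm3, Mcm5, Mcm6 and Mcm7), in both licensing loaders (Cdc6 and Cdt1), in 2 of 6 ORC genes (Orc1 and Orc3), and in 2 of 3 genes of polymerases delta and epsilon (Pold1 and Pole2). Gins3, Pola1, Rfc3 and Lig1 each held at least 1. None was found in the 3 RPA or the 3 nucleotide supply windows. Genes with octamers ranged in level from Orc1 at the bottom of the set to Mcm7 near its top.

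**Figure D3:**
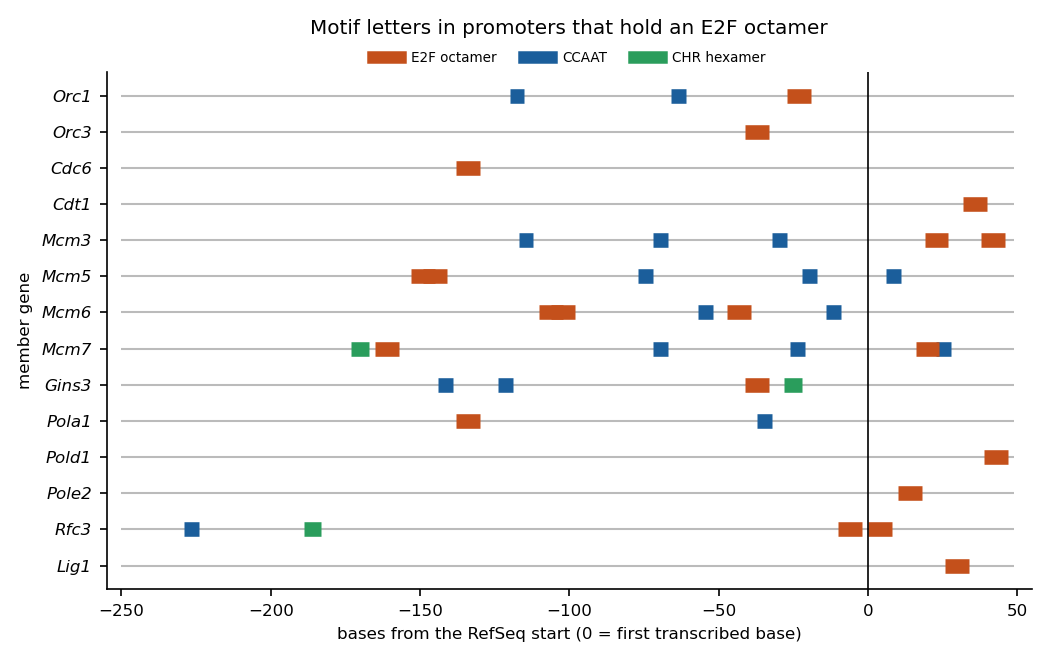
Positions of E2F octamers, CCAAT letters and CHR hexamers in the windows of the 14 genes with an E2F octamer, in bases from the RefSeq start, from 250 before it to 49 after it. Octamers lie both upstream and just downstream of the start, and CCAAT letters accompany them in 8 genes.

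Other letters and other lists were counted in the same way. The CCAAT pentamer, bound by NF-Y, was in 23 of the 35 replication genes against 43.3% of expressed protein-coding genes. The CHR letters TTTGAA or TTCGAA, known from genes of mitosis, were in 7 of 35 against 15.9%. Among 11 mitosis genes with a window, none held an E2F octamer, 8 held CHR letters and 10 held CCAAT. Of 58 other replication and E2F-related genes with a window, 15 held an E2F octamer, and of 9 radial glia and 8 neuron genes none did. The share over expressed protein-coding genes was 4.66%. The mitosis, radial glia and neuron lists are too small to tell none from that share. These shares are descriptions of lists chosen with earlier results of these data known.

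Of the 43 genes, 12 started within 1000 bases of another protein-coding gene on the other strand, against 15.4% of expressed protein-coding genes. The closest pairs were Orc3 with Rars2 (13 bases apart) and Orc1 with Prpf38a (87 bases apart). Levels within a pair could differ widely. Prpf38a stood at 71.8 ± 1.05 TPM beside Orc1 at 5.88 ± 1.02 TPM (SD, n = 2 each). Mcm4 (70.2 ± 0.290 TPM) lay 466 bases from Prkdc, a DNA repair kinase gene at 7.56 ± 0.247 TPM (SD, n = 2 each). The others were Orc4, Orc6, Mcm7, Cdc45, Gins1, Pole, Rpa1, Rpa3 and Fen1.

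Some reads could be shared with other genes. Exons of 16 members overlapped exons of another gene, 12 of them a protein-coding gene, so these levels are less certain. Some partners lie on the same strand, where strand could not separate the reads. Pole2 shares 245 bases with Gm49384 (15.5 and 16.1 TPM), and Orc5 90 bases with Gm15421 (15.05 and 8.28 TPM). On the other strand, Fen1 shares 78.8% of its exon bases with Gm10143 and Orc2 29.8% with Nif3l1. Processed pseudogenes with 90% or more identity over at least 200 bases existed for 10 members, 13 copies in all. No share over all expressed genes stands beside these counts, so they do not set the members apart from other genes. The copies took little signal. The highest was Rpa3's Gm6195, listed at 0 in pool 1 and at 1.12 TPM in pool 2. Pcna-ps2, 99.2% identical to Pcna over 781 bases, had 0.70 and 0.98 TPM beside 138 and 132 TPM for Pcna.

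The pools were compared on counts scaled by TMM, a method that centres most genes on no change, over the 14995 genes with a mean of 50 or more counts. No replication gene differed 2-fold, against 1.01% of all genes compared, and none reached a log2 ratio of 0.32 in either direction, against 11.5%. Among the 11234 genes with at least the counts of the lowest member, 4.26% reached it. The shift was small but mostly 1 way. In pool 2, 35 of 43 genes were lower and 8 higher on this scaling, while 50.4% of all genes were lower. The direction depended on the measure for some of the 35. By gene TPM as deposited, Orc2, Mcm4, Gins4, Pola1, Pole2, Rfc3, Rfc4, Rfc5 and Rpa1 were higher in pool 2, and the rest of the 35 were lower. Spike-ins took 7.97% of that TPM in pool 1 and 10.3% in pool 2, which lowers every gene in pool 2. Genes with nearly equal TPM, such as Mcm7 (138.36 and 138.0 TPM), could thus change side without them. The share of all genes lower by TPM was not counted. The median log2 ratio of pool 2 over pool 1 was -0.06 for the 43 genes and -0.00116 for all genes. Scaled by spike-ins instead, which put the median of all genes at -0.37, all 43 genes were below 0 and 35 were below that median. No test applies to this shift, because the pools are the only replicates of 1 group.

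All 6 MCM2-7 genes had ratios below 0, from -0.01 (Mcm4) to -0.14 (Mcm3) on the log2 scale, as did all 3 licensing factors (Gmnn -0.20, Cdt1 -0.13 and Cdc6 -0.13). The 4 genes of polymerases delta and epsilon had ratios from -0.03 (Pole2) to -0.14 (Pole). Among the genes of these classes, Mcm4 and Pole2 were slightly higher in pool 2 by gene TPM. The lowest ratio was that of Gins2, -0.26, followed by Gmnn and by Rpa2 with -0.19. The 8 genes that were higher in pool 2 with TMM included Orc4 and Orc3, at 0.14 and 0.13, and Rfc1 at 0.09. These ratios count all transcripts of a gene, and ratios on protein-coding transcripts alone were not taken. For Gins2 the protein-coding share of counts was 73.9% in pool 1 and 80.1% in pool 2, so its place as lowest holds for all transcripts only. For Rfc1 that share was 88.3% and 85.8%. Intervals of 95% that cover counting error only excluded 0 in 13 of the lower and 3 of the higher genes. Of all genes compared, 17.4% were lower and 18.2% higher by this measure, and of those with at least the counts of the lowest member 18.6% and 20.0%. Among the genes named here, the intervals of Mcm4, Cdt1, Cdc6, Pole2, Pold1 and Pold2 included 0. That of Rfc1 only just excluded it, running from 0.00044 to 0.17. PCR duplicates are not marked by molecular identifiers, so these intervals are too narrow as a measure of pool differences.

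**Figure D4:**
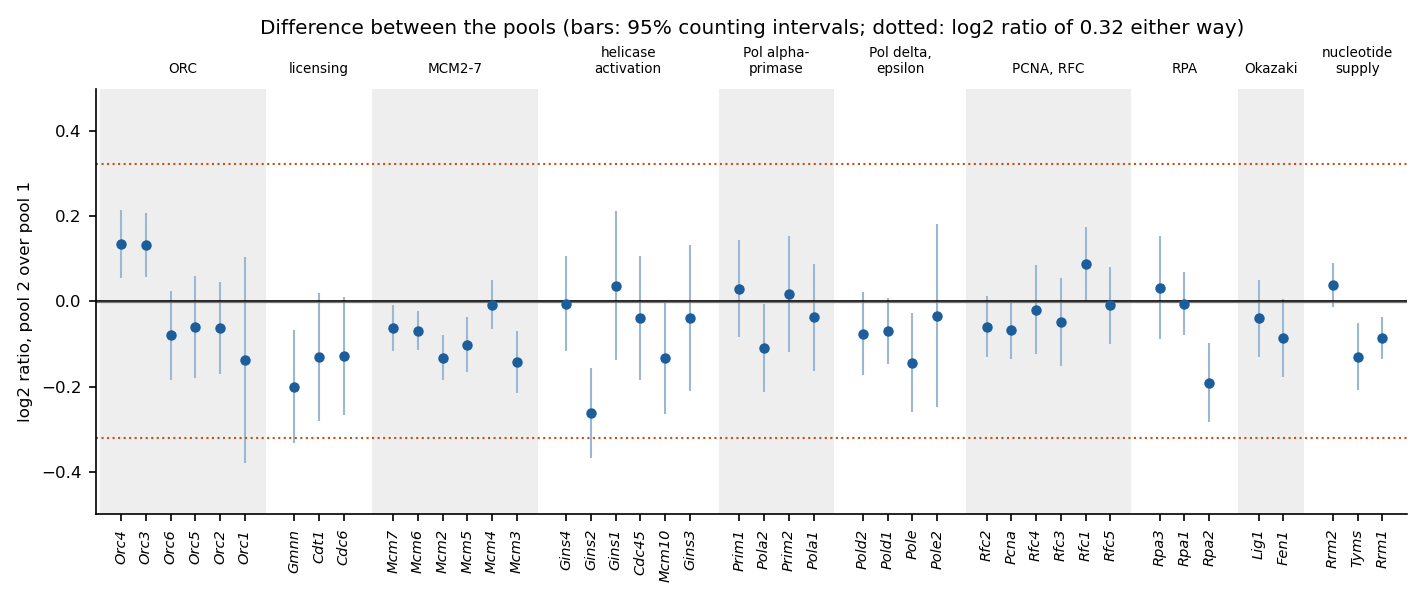
Log2 ratio of pool 2 over pool 1 for the 43 genes on counts of all transcripts, with 95% intervals for counting error alone. Dotted lines mark a log2 ratio of 0.32 in either direction. All points lie inside the dotted lines, from -0.26 for Gins2 to 0.14 for Orc4, and 35 are below 0.

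Cell type markers moved between the pools as well. Of 14 mitosis genes, 12 were lower in pool 2 (median log2 ratio -0.10), and of 11 radial glia and progenitor genes 10 were lower (median -0.11). Of 14 neuron genes, 11 were higher (median 0.06). All 8 skeletal muscle genes were higher by 2-fold or more (median 2.28), and 8 of 8 mesenchyme genes were higher (median 0.30), while 9 of 10 erythroid genes were lower (median -0.31). All 8 hindbrain markers were higher (median 0.35). Summed TPM of the neuron list went from 3937 to 4113, of the radial glia list from 2837 to 2609, and of the mitosis list from 978 to 913. The part of cell composition in the shift of the replication genes was not tested.

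The other genes of the pathway were taken from 6 lists of 69 symbols, matching 70 rows because Chtf8 has 2 gene identifiers. All 70 were at 1 TPM or more in both pools, and the median was 34.6 TPM. None differed 2-fold between pools, 45 were lower and 25 higher in pool 2, and the median log2 ratio was -0.04. The 15 origin firing and fork factors had a median of 23.1 ± 1.252 TPM (SD, n = 2). They were led by Tipin, a fork protection factor (114 ± 4.94 TPM), Mcmbp, a partner of MCM proteins (53.7 ± 1.15 TPM), Topbp1, which acts in helicase activation (44.5 ± 1.87 TPM), and Timeless, the partner of Tipin (38.5 ± 3.83 TPM; SD, n = 2 each).

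Of the clamp loader, flap and topoisomerase genes, the highest were Top2a, the topoisomerase of dividing cells (152 ± 3.27 TPM), and Top2b, its counterpart that neurons also use (137 ± 1.64 TPM). Rnaseh2c had 92.4 ± 7.38 TPM and Top1 90.9 ± 4.89 TPM (SD, n = 2 each). Replication-coupled chromatin genes were high, with a median of 75.2 ± 3.08 TPM. They were led by the FACT subunit gene Ssrp1 (184 ± 0.686 TPM) and the histone chaperone gene Nasp (142 ± 2.60 TPM), before the histone chaperone gene Asf1a (102 ± 2.16 TPM) and the maintenance methyltransferase gene Dnmt1 (75.8 ± 3.95 TPM; SD, n = 2 each). Genes with ratios below 0 in pool 2 numbered 8 of 9 in the chromatin list, 9 of 12 rows in the clamp loader, flap and topoisomerase list, 11 of 15 in the firing and fork list, 2 of 4 polymerase subunits, 9 of 17 in nucleotide metabolism and 6 of 13 in the E2F, DP and pocket protein list.

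The nucleotide metabolism list had a median of 41.4 ± 0.919 TPM, below the 3 supply genes described above by gene TPM. On protein-coding transcripts Tyms had 24.2 and 16.0 TPM, and the other lists were not counted on that measure. Dtymk, which phosphorylates dTMP, had 149 ± 1.499 TPM, Nme1 147 ± 21.5 TPM, Nme2 93.0 ± 3.73 TPM and Dut, which removes dUTP, 83.4 ± 0.460 TPM (SD, n = 2 each). The E2F, DP and pocket protein list had a median of 22.1 ± 2.47 TPM. Its highest genes were the partner gene Tfdp1 (112 ± 2.32 TPM), E2f6 (54.6 ± 5.62 TPM), E2f4 (53.5 ± 0.948 TPM) and Tfdp2 (47.9 ± 3.05 TPM; SD, n = 2 each). E2f4 and E2f6 are known as repressor members of the family.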

How the data were processed

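PolyA-plus RNA-seq was measured in 2 hindbrain pools, per the labels. Per the deposited read-me files, the authors quantified genes and transcripts on mm10 with GENCODE M21 (used here) and GENCODE M4 (an alternative). The deposited expected counts are estimated reads, without depth scaling. TPM, as deposited, is per length and sums to the same total over genes, spike-ins and 26248 tRNA entries. The program, its settings and whether it used strand are not given in the sources used here. Symbols matched 55450 of 55536 gene identifiers.

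Means and SDs were taken over the 2 pools, with no test. Expected counts were rounded and scaled with edgeR 4.0.16 TMM (R 4.3.3), for genes of 50 or more mean counts, with a prior count of 0.5; the step was tested on simulated data. DESeq2 1.42.0 gave alternative size factors. Copies were found with blastn 2.17.0. Python 3.11.15 and pandas 2.3.3 were used. Library totals were 32547454 and 30559015. The members and lists were chosen with earlier results of these data known. Named genes are all members, the 4 of highest mean TPM in each other replication list and those of these lists under 1 TPM or 2-fold different between pools. Alternatives were the annotation, scalings, filters, thresholds, transcript types, windows and each pool alone.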

Additional observations from a re-analysis of the deposited data

How the results depend on the processing

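The count of members at 1 TPM or more in both pools was 43 with M4, with 0.5 TPM and with either pool alone, and 42 at 10 TPM. The median TPM over members was 58.0, ranged from 56.9 to 59.1 with a pool left out, and was 60.7 with M4, 63.9 rescaled to genes only and 36.95 on protein-coding transcripts only, a choice added after the data were seen. The MCM2-7 ratio of highest to lowest was 2.12, ranged from 2.02 to 2.23 with a pool left out, and was 2.30 with M4 and 2.62 on protein-coding transcripts. No member differed 2-fold between pools under any scaling, filter, prior count or annotation, and none reached a log2 ratio of 0.32 with TMM. The median log2 ratio over members lay between -0.06 and -0.05 under every alternative except the spike-in total. There it was -0.43 and the median of all genes was -0.37. With that scaling 40 members passed 0.32 on the log2 scale, a limit that the median of all genes passed too. The difference of members from all genes was -0.06, as with TMM. Ratios of gene TPM were not among these alternatives. E2F octamers were in 9 members with only the 250 bases before the start and in 12 with TTTCCCGC and TTTGGCGC only. The M4 level was within 0.2 on the log2 scale of the M21 level for 39 members; it was lower by more for Rfc2 (109 TPM), Orc6 (50.03 TPM), Mcm5 (63.3 TPM) and Pola2 (30.1 TPM), and Rfc2 was then 1.61-fold lower. The cause was not tested. No paired analysis was possible because the pools form 1 group.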
